A study of Mus musculus with 8 samples.

Results

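The genes described here are 9 components of the pathway through which leukaemia inhibitory factor (LIF) acts on mouse pluripotent stem cells: the receptor genes Lifr, Il6st and Osmr, the kinase and transcription factor genes Jak1 and Stat3, and 4 genes known as targets of STAT3 (Socs3, Pim1, Pim3 and Bcl3). They were taken by symbol from a table of 54838 genes, and each symbol matched 1 Ensembl gene. LIF binds the LIF receptor, which pairs with gp130, the product of Il6st. The bound pair activates Janus kinases, among them JAK1, which phosphorylate STAT3, and STAT3 then enters the nucleus and binds its target genes. In mouse embryonic stem cells this pathway sustains self-renewal, and SOCS3, made from a STAT3 target, binds back to gp130 and restrains it.

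The cells were male mouse induced pluripotent stem cells, labelled ESC, from 2 independent clones that per the labels served as biological replicates. The medium of all groups, used over irradiated feeders, held 15% serum, LIF at 1000 U/ml, a MEK inhibitor at 1 µM and a GSK3 inhibitor at 3 µM, and no altered allele is given for any group. The asynchronous group had no drug. The other 3 groups were moved to gelatin and arrested with nocodazole (200 ng/ml, 6 h), which stops microtubules from growing, and mitotic cells were then shaken off. Of these, the early G1 group had 1 h and the late G1 group 3 h of growth without the drug, so drug, handling and cell cycle stage cannot be told apart in a comparison with asynchronous cells. Each state had 2 libraries of poly(A) RNA. The labels do not say which clone gave which library, so p-values measured the spread between these samples.

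Total counts ran from 20410621 to 25615244 per library. The 8 markers of pluripotent stem cells had a summed level between 5316 and 6817 CPM (the count relative to the TMM-normalised library size) in the 8 libraries. Replicates lay far apart in asynchronous and mitotic cells, with a biological coefficient of variation of 0.292 and 0.183, against 0.0506 in early and 0.0417 in late G1. Replicate 1 of the asynchronous and of the mitotic group deviated alike, so log2 changes that rest on them are also given with both left out and, for balance, with both replicates 2 left out. These fits were chosen after seeing the data and leave 1 library each for asynchronous and mitotic cells, with the spread taken from G1 cells alone, so their p-values are not given. The 20 fibroblast markers, listed for the feeder cells, summed to between 1753 and 1827 CPM in asynchronous libraries, 77.7 to 89.9 CPM in mitotic, 124 to 134 CPM in early G1 and 74.0 to 85.9 CPM in late G1. Each comparison with asynchronous cells carries this difference, and Fap was at 0 in mitotic and late G1 cells. Apart from Laptm5 and Cd68, which stayed between 223 and 290 CPM together in every library, the other 16 macrophage markers summed to between 75.6 and 80.6 CPM in mitotic cells, 28.3 to 43.9 CPM in asynchronous cells and 8.71 to 12.6 CPM in G1, and Lyz2 was at 0 in late G1. The part of either cell type in the results below was not tested, and in such bulk samples fewer cells of a type and less RNA per cell cannot be told apart.

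By 3 h after release, in late G1, the members Lifr, Il6st, Jak1 and Stat3 stood above asynchronous cells, by 1.38- to 1.91-fold. The target genes among the members, Socs3, Pim1, Pim3 and Bcl3, stood below them, by 1.51- to 2.04-fold. Wider lists of the pathway, described further below, went both ways between these states. Of 24 other genes known as induced by LIF or STAT3, 11 were higher and 6 lower. Of 9 other JAK and STAT genes, 2 were higher and 4 lower. Of the 8 members other than Osmr, 5 changed in a test over all 4 states (all but Jak1, Stat3 and Bcl3), where 48.5% of genes did. In late G1 against asynchronous cells all 8 were called (edgeR quasi-likelihood test, Benjamini-Hochberg adjusted p under 0.05 over 19101 genes), where the background was 48.7% of genes called, 22.7% higher and 26% lower. In none of the 8 did the late G1 libraries overlap the asynchronous ones, as was so for 74.9% of all genes tested. Of the 8 calls, those of Jak1, Stat3, Pim3 and Bcl3 were each lost on leaving out at least 1 library, as given below. Over the 16 alternative fits, log2 changes ran from 0.68 to 0.93 for Lifr and from 0.87 to 1.01 for Il6st. They ran from -1.07 to -0.93 for Socs3 and from -1.10 to -0.95 for Pim1. The directions were the same with both replicates 1 and with both replicates 2 left out, with log2 changes of 0.74 and 0.24 for Jak1, 0.90 and 0.36 for Stat3 and -1.11 and -0.23 for Bcl3. Osmr had passed the filter on low counts only through the asynchronous libraries and is left out of these counts.

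**Figure D1:**
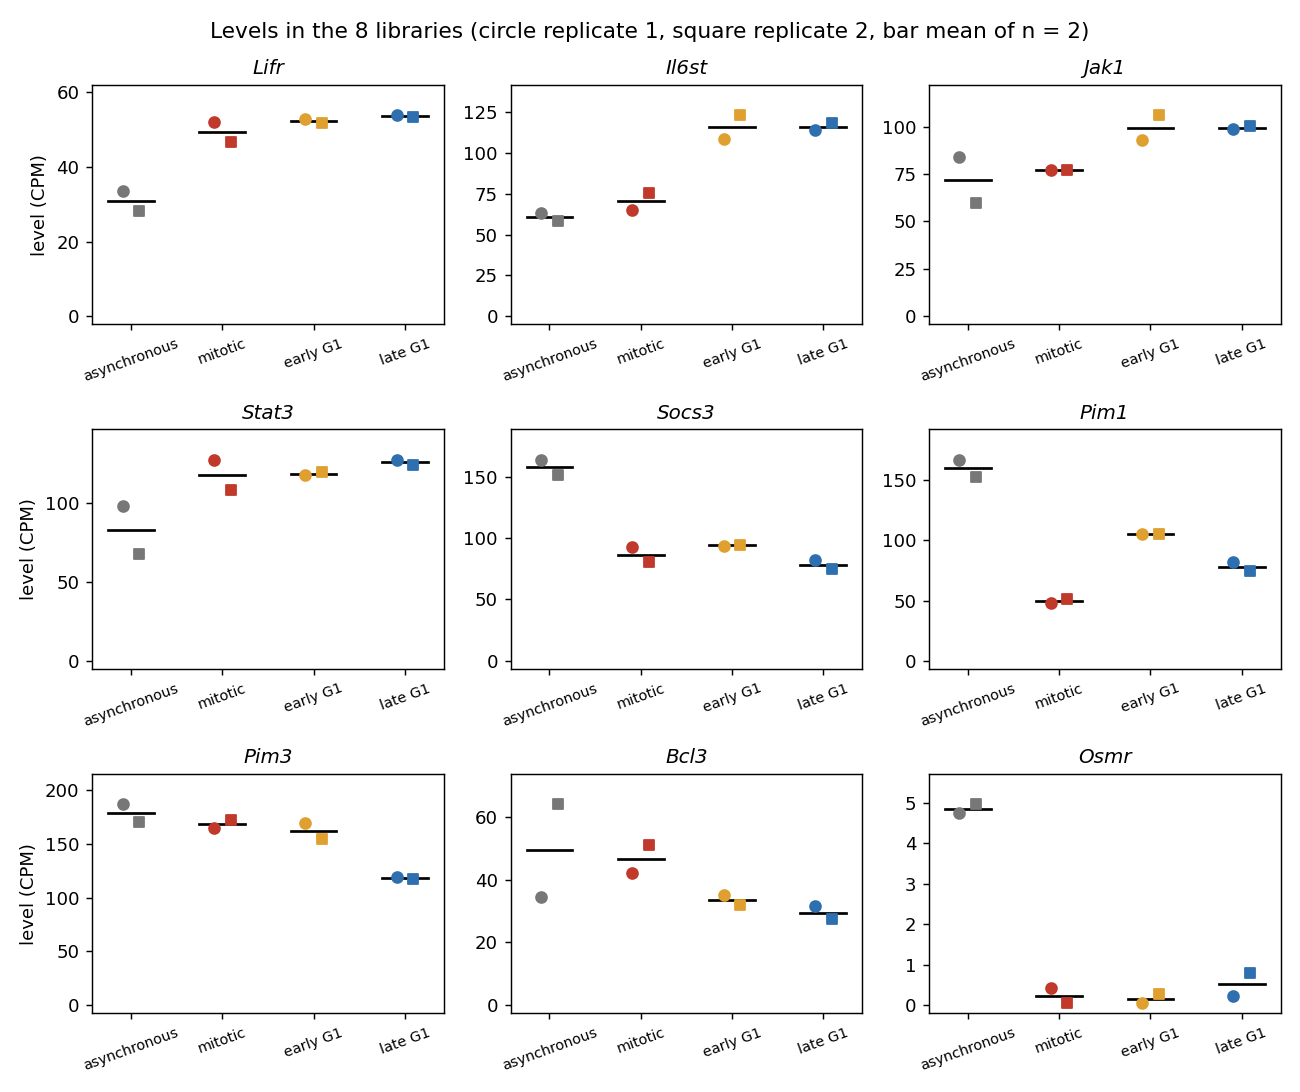
Level of each gene in CPM (vertical axes, each from 0) in the 4 states (horizontal axes), with circles for replicate 1, squares for replicate 2 and a bar at the mean of n = 2. Lifr stands at 28.2 and 33.4 CPM in asynchronous cells and between 46.6 and 53.9 CPM elsewhere, while Socs3 stands at 151 and 164 CPM and between 74.9 and 94.6 CPM.

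Lifr (ENSMUSG00000054263, chromosome 15, 7090614 to 7197489, GRCm38), which encodes the LIF-binding chain, had 33.4 and 28.2 CPM in the asynchronous libraries (replicate 1, then replicate 2, here and below). In the mitotic libraries it stood at 52.0 and 46.6 CPM, in early G1 at 52.9 and 51.7 CPM and in late G1 at 53.9 and 53.4 CPM. Both asynchronous libraries lay below the other 6, and the mitotic and G1 values were close together. The rise from asynchronous to mitotic cells was 1.60-fold (log2 0.68, SE 0.14, adjusted p = 0.00608), and it was 1.74-fold in late G1 (adjusted p = 0.00231). The fit of mitotic and asynchronous libraries alone did not call the first (log2 0.71, adjusted p = 0.0576). With both replicates 1 left out it was 0.73, and with both replicates 2 left out 0.63. Neighbouring states from mitotic to late G1 were not called different (adjusted p = 0.755 for early G1 against mitotic cells and 1 for late against early G1). Both late G1 libraries lay slightly above both early G1 ones, in a comparison where 0 of 19101 genes were called.

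Il6st (ENSMUSG00000021756, chromosome 13, 112464070 to 112510086) is the gene of the gp130 chain shared by LIF and other cytokines of the interleukin-6 family. Unlike Lifr, it was called above asynchronous cells only after release. It stood at 63.6 and 58.2 CPM in asynchronous and 65.2 and 75.7 CPM in mitotic cells. The mitotic libraries lay log2 0.21 higher without overlap, which was not called (60.9 ± 3.87 against 70.5 ± 7.45 CPM, SD, n = 2, adjusted p = 0.236). In early G1 it stood at 109 and 123 CPM and in late G1 at 114 and 119 CPM, all 4 above every asynchronous and mitotic library. The change in the first hour was 1.65-fold (log2 0.72, SE 0.13, adjusted p = 0.0265), and late G1 lay 1.65-fold above mitotic cells (adjusted p = 0.0165) and 1.91-fold above asynchronous cells (adjusted p = 0.00102). Early and late G1 did not differ (116 ± 10.4 against 116 ± 3.27 CPM, adjusted p = 1). Both calls against mitotic cells were lost without either library of the mitotic, early G1 or late G1 group (adjusted p from 0.0824 to 0.273 for early G1 and from 0.0502 to 0.159 for late G1). With both replicates 1 left out each of these changes was log2 0.62, and with both replicates 2 left out 0.84. Mitotic against asynchronous cells then stood at log2 0.39 and 0.03.

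Osmr (ENSMUSG00000022146, chromosome 15, 6813577 to 6874969), the gene of the receptor chain that pairs with gp130 for oncostatin M, lies 215.6 kb from Lifr with 0 protein-coding genes between them. Its level was high where that of Lifr was low. It had 119 and 98 counts in the asynchronous libraries (4.74 and 4.97 CPM), 10 and 1 in the mitotic, 1 and 7 in the early G1 and 5 and 17 in the late G1 libraries. These came to 217 counts in asynchronous cells and 11, 8 and 22 in the others. Since the gene entered the test only through the state in which it was high, no fold or p against asynchronous cells is given. At so few counts the other 3 states were not distinguished from each other (adjusted p = 0.832, 1 and 0.471). The fibroblast markers Col1a1, a collagen chain (509 and 554 CPM in asynchronous cells, 5.96 to 21.5 CPM elsewhere), and Postn, which encodes periostin (at least 83.6 CPM, then 0.375 to 2.64 CPM), were low in the same 6 libraries. Dcn, which encodes decorin, had 2.75 and 3.14 CPM in asynchronous cells and at most 0.283 CPM elsewhere.

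**Figure D2:**
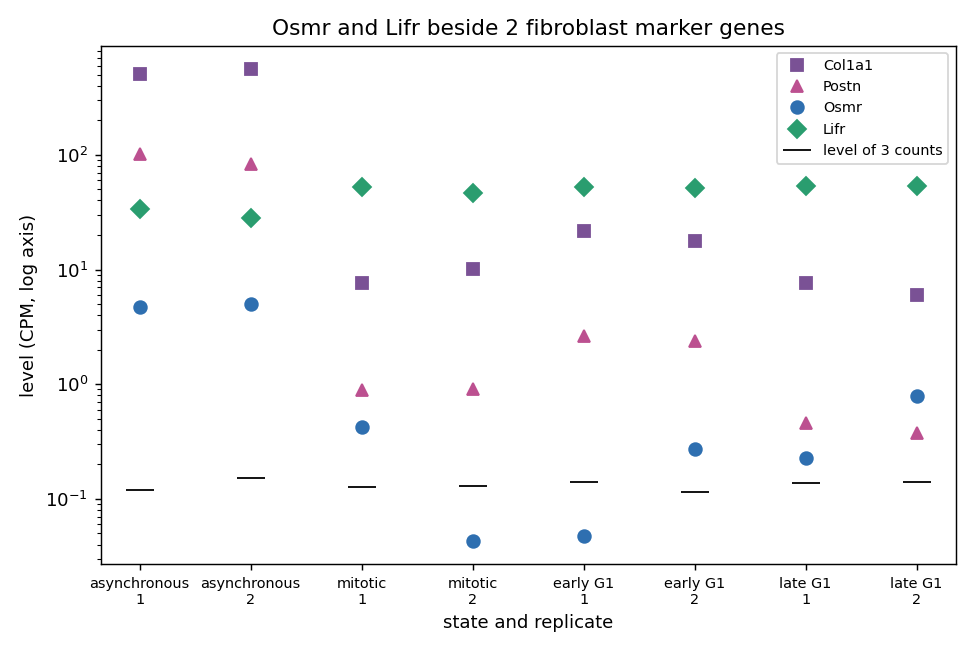
Level in CPM on a log axis (vertical) of Osmr, Lifr and the fibroblast genes Col1a1 and Postn in each of the 8 libraries (horizontal, by state and replicate), with a dash at the level of 3 counts. Osmr, Col1a1 and Postn are highest in the asynchronous libraries, at 4.74 CPM or more for Osmr, whereas Lifr is lowest there.

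Jak1 (ENSMUSG00000028530, chromosome 4, 101152367 to 101265282), the gene of the receptor-bound kinase, stood at 84.1 and 59.5 CPM in asynchronous cells and 77.3 and 77.2 CPM in mitotic cells. It stood at 92.9 and 106 CPM in early G1 and 98.5 and 100.2 CPM in late G1. Every G1 library was above every other, while the asynchronous pair lay on both sides of the mitotic pair. The gene was higher in late G1 than in asynchronous cells by log2 0.47 (SE 0.17, adjusted p = 0.0495). This call was lost without any library but asynchronous replicate 1 (adjusted p from 0.0745 to 0.179, log2 0.24 without asynchronous replicate 2) and in the fit of those groups alone (adjusted p = 0.130). Early G1 lay log2 0.37 above mitotic cells (adjusted p = 0.245), and 0.36 on leaving out either asynchronous library. The fit of the 2 groups alone called this difference (log2 0.38, adjusted p = 0.0482). That fit called 2759 of all genes, against 885 in the fit of all states. Without asynchronous replicate 1, early G1 and mitotic cells lay above asynchronous cells by log2 0.75 and 0.38. Without asynchronous replicate 2 these differences were log2 0.24 and -0.12. Each of these fits leaves 1 asynchronous library, which has no spread of its own, so no p is given.

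Stat3 (ENSMUSG00000004040, chromosome 11, 100885098 to 100939540), the gene of the transcription factor at the end of the pathway, was lowest in asynchronous cells, at 98.2 and 68.0 CPM. It stood at 128 and 108 CPM in mitotic cells, 118 and 120 CPM in early G1 and 128 and 124 CPM in late G1. The 2 asynchronous libraries lay below the other 6. Among those, the mitotic libraries overlapped both G1 states, while both late G1 libraries lay above both early G1 ones. Late G1 was 1.52-fold above asynchronous cells (log2 0.60, SE 0.18, adjusted p = 0.0235) and early G1 1.43-fold (adjusted p = 0.0434), while the mitotic difference of log2 0.50 just missed the threshold (adjusted p = 0.0514). That last one was called with another scaling (RLE, adjusted p = 0.0392) and with DESeq2 (adjusted p = 0.0250). It was not called in the fit of the 2 groups alone (adjusted p = 0.143). The mitotic difference was log2 0.80 without asynchronous replicate 1 and 0.26 without replicate 2, fits that leave 1 asynchronous library. The early G1 call was lost without any library but asynchronous replicate 1 (adjusted p from 0.0571 to 0.161, log2 0.27 without asynchronous replicate 2), and the late G1 call without late G1 replicate 1 or 2 (adjusted p = 0.109 and 0.0948). The fits of early or late G1 with asynchronous libraries alone called neither (adjusted p = 0.118 and 0.0782). Mitotic cells, early G1 and late G1 were not distinguished from each other (adjusted p = 0.982, 1 and 0.763).

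Socs3 (ENSMUSG00000053113, chromosome 11, 117966079 to 117970047, minus strand), the feedback inhibitor of gp130 signalling, was lower outside the asynchronous state. It stood at 164 and 151 CPM in asynchronous cells, 92.4 and 80.5 CPM in mitotic cells, 93.3 and 94.6 CPM in early G1 and 81.7 and 74.9 CPM in late G1. The asynchronous libraries lay far above all others. The gene was 1.82-fold lower in mitotic than in asynchronous cells (log2 -0.87, SE 0.12, adjusted p = 0.00141), 1.68-fold lower in early G1 (adjusted p = 0.00232) and 2.01-fold lower in late G1 (adjusted p = 5.57e-04). Over the 16 alternatives, some of which leave 1 library in a state, the log2 change ran from -0.96 to -0.76 in mitotic cells. It ran from -0.81 to -0.67 in early G1 and from -1.07 to -0.93 in late G1. Mitotic and early G1 cells were not distinguished (adjusted p = 0.602), with a difference of log2 0.22 with both replicates 1 left out and 0.03 with both replicates 2 left out. Late G1 lay below early G1 without overlap (78.3 ± 4.81 against 94.0 ± 0.910 CPM, log2 -0.26), which the fit of all states did not call (adjusted p = 1) and the fit of the 2 G1 groups alone did (adjusted p = 0.00454).

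Among the windows searched, that of Socs3 was the only 1 of the members in which a STAT-type motif was found, and its letters are shown for that reason. The motif searched was TTCNNNGAA, which reads the same on both strands, in windows of 250 bases before to 50 bases after the RefSeq starts (GRCm38.p6). The 9 members had 11 such windows, of which 1 held a match, against 8.3% of all 32851 windows. The match begins 154 bases before the RefSeq start of Socs3, at chr11:117969502-117969530 with its flanks (minus strand). In the GENCODE models this stretch overlaps no exon and lies within the span of 1 of 3 Socs3 transcripts. Capitals mark the 9 bases of the motif, 5′ to 3′.
Socs3: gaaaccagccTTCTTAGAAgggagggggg

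Pim1 (ENSMUSG00000024014, chromosome 17, 29490753 to 29496112), which encodes a serine/threonine kinase that promotes survival and growth, had the widest swing among the members other than Osmr. It stood at 167 and 153 CPM in asynchronous cells, fell to 47.6 and 51.6 CPM in mitotic cells, rose to 106 and 105 CPM in early G1 and stood at 82.1 and 74.4 CPM in late G1. The states did not overlap. The fall at the arrest was 3.22-fold (log2 -1.69, SE 0.12, adjusted p = 9.01e-05) and the rise in the first hour 2.13-fold (log2 1.09, SE 0.12, adjusted p = 0.00513). Late G1 remained 1.58-fold above mitotic cells (adjusted p = 0.0169) and 2.04-fold below asynchronous cells (adjusted p = 4.49e-04), and early G1 was 1.52-fold below asynchronous cells (adjusted p = 0.00499).

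For Pim1 the fall from early to late G1 (105 ± 0.449 to 78.2 ± 5.50 CPM, log2 -0.43) had an unadjusted p of 0.00680 and an adjusted p = 1 in the fit of all states, and it was called in the fit of the G1 groups alone (adjusted p = 7.91e-06). The rise in the first hour lost its call without mitotic replicate 1 or either early G1 library (adjusted p from 0.0694 to 0.0756), and the difference of early G1 from asynchronous cells without early G1 replicate 1 or 2 (adjusted p = 0.0538 and 0.0596). The late G1 difference from mitotic cells was lost without any mitotic or G1 library (adjusted p from 0.0596 to 0.182), and with both replicates 1 left out it was log2 0.60, with both replicates 2 left out 0.72. An antisense gene, Gm26885, overlaps 488 bases of Pim1 exons and had between 1.67 and 3.79 CPM.

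Pim3 (ENSMUSG00000035828, chromosome 15, 88862186 to 88865726), the gene of a related kinase, held its level through the arrest and the first hour and then dropped. It stood at 187 and 171 CPM in asynchronous cells, 165 and 173 CPM in mitotic cells, 169 and 154 CPM in early G1 and 119 and 117 CPM in late G1. Both late G1 libraries lay below the other 6. Late G1 was 1.51-fold below asynchronous cells (log2 -0.60, SE 0.12, adjusted p = 0.00388) and 1.43-fold below mitotic cells (log2 -0.52, adjusted p = 0.0316). The step from early to late G1 was log2 -0.45, with an unadjusted p of 0.00412 and adjusted p = 1 in the fit of all states and adjusted p = 1.22e-06 in the fit of the G1 groups alone. No difference among asynchronous, mitotic and early G1 cells was called (adjusted p = 0.595, 0.790 and 0.328). Both early G1 libraries nevertheless lay below both asynchronous ones. The call against asynchronous cells was lost without late G1 replicate 2 (adjusted p = 0.0508). The call against mitotic cells was lost without any mitotic or G1 library (adjusted p from 0.0889 to 0.246) and was log2 -0.55 with both replicates 1 and -0.48 with both replicates 2 left out.

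Bcl3 (ENSMUSG00000053175, chromosome 7, 19808462 to 19822770), which encodes a nuclear protein of the IκB family, could not be placed in asynchronous cells, where its replicates stood at 34.6 and 64.1 CPM. It stood at 42.1 and 51.0 CPM in mitotic cells, 35.1 and 31.9 CPM in early G1 and 31.7 and 27.4 CPM in late G1. The mitotic libraries lay between the asynchronous ones and above all 4 G1 libraries. Late G1 was called below asynchronous cells (log2 -0.74, SE 0.27, adjusted p = 0.0483). That call was lost without any library but asynchronous replicate 1 (adjusted p from 0.0715 to 0.242, log2 -0.23 without asynchronous replicate 2), with RLE scaling (adjusted p = 0.0550) and in the fit of the 2 groups alone (adjusted p = 0.124). Against asynchronous replicate 2 alone the mitotic level was lower (log2 -0.46), and against replicate 1 alone it was higher (log2 0.43). With 1 asynchronous library left that state has no spread of its own, so no p is given. Late G1 differed from mitotic cells by log2 -0.66 (adjusted p = 0.161), and by the same on leaving out either asynchronous library. The fit of the 2 groups alone called this difference (log2 -0.64, adjusted p = 0.0253). That fit called 2275 of all genes higher and 1684 lower, against 1038 and 772 in the fit of all states. Early G1 differed from mitotic cells by log2 -0.48 (adjusted p = 0.323), and by the same on leaving out either asynchronous library.

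**Figure D3:**
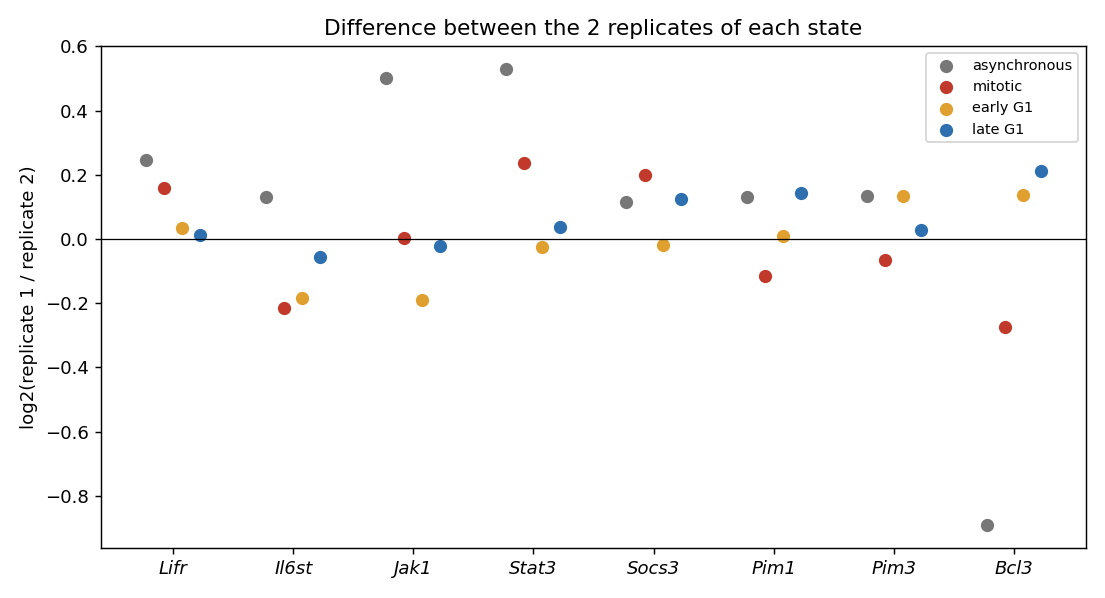
Difference between replicate 1 and replicate 2 as log2 of their ratio (vertical axis) for the 8 members other than Osmr (horizontal axis), coloured by state. The widest gaps are those of asynchronous cells, at -0.89 for Bcl3, 0.53 for Stat3 and 0.50 for Jak1, and in late G1 the gaps lie between -0.057 and 0.21.

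Replicates of the members differed by up to 1.85-fold in asynchronous cells and up to 1.21-fold in mitotic cells, Osmr apart. In early and late G1 they differed by at most 1.14- and 1.16-fold. The asynchronous spread of Jak1, Stat3 and Bcl3 therefore set how well their levels could be compared with that state.

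At the arrest, the members' share of calls was close to that of all genes. Of the 8 members, 1 was higher in mitotic than in asynchronous cells (Lifr), 2 were lower (Socs3 and Pim1) and 5 were not called, against a background of 40.7% called, 18.3% higher and 22.4% lower. With both replicates 1 left out the 5 genes not called, Il6st, Jak1, Stat3, Pim3 and Bcl3, stood at log2 0.39, 0.38, 0.68, 0.02 and -0.32, and with both replicates 2 left out at 0.03, -0.13, 0.37, -0.19 and 0.28. Within the first hour 2 of 8 rose, Il6st and Pim1, and 0 fell, where 4.63% of genes were called, 3.21% higher and 1.42% lower. At an unadjusted p under 0.05 the edgeR test also gave 2 and 0, near the share of 22.6% of all genes at that threshold, and DESeq2 at its adjusted p gave 2 and 0 where it called 6.7% of all genes. From mitotic cells to late G1, Il6st and Pim1 rose and Pim3 fell, with 9.48% of genes called, 5.43% higher and 4.04% lower.

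Between early and late G1 the edgeR fit of all states called 0 members and 0 of 19101 genes, so the background was 0%. At an unadjusted p under 0.05 it gave 2 members, Pim1 and Pim3, both lower, and 724 genes (3.79%). DESeq2 called 0 members and 26 genes. In the fit of the 2 G1 groups alone, whose replicates were close, 3 members were called, all lower and all targets of STAT3 (Socs3, Pim1 and Pim3), where 8.44% of 17696 genes were called, 4.94% lower and 3.5% higher. Lifr, Il6st, Jak1 and Stat3 differed by at most log2 0.086 between these states. Early G1 against asynchronous cells gave 3 higher (Lifr, Il6st and Stat3) and 2 lower (Socs3 and Pim1) of 8, with 46% of genes called, 21.3% higher and 24.7% lower. The comparisons with asynchronous cells share those libraries, as those with mitotic cells share the mitotic ones.

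**Figure D4:**
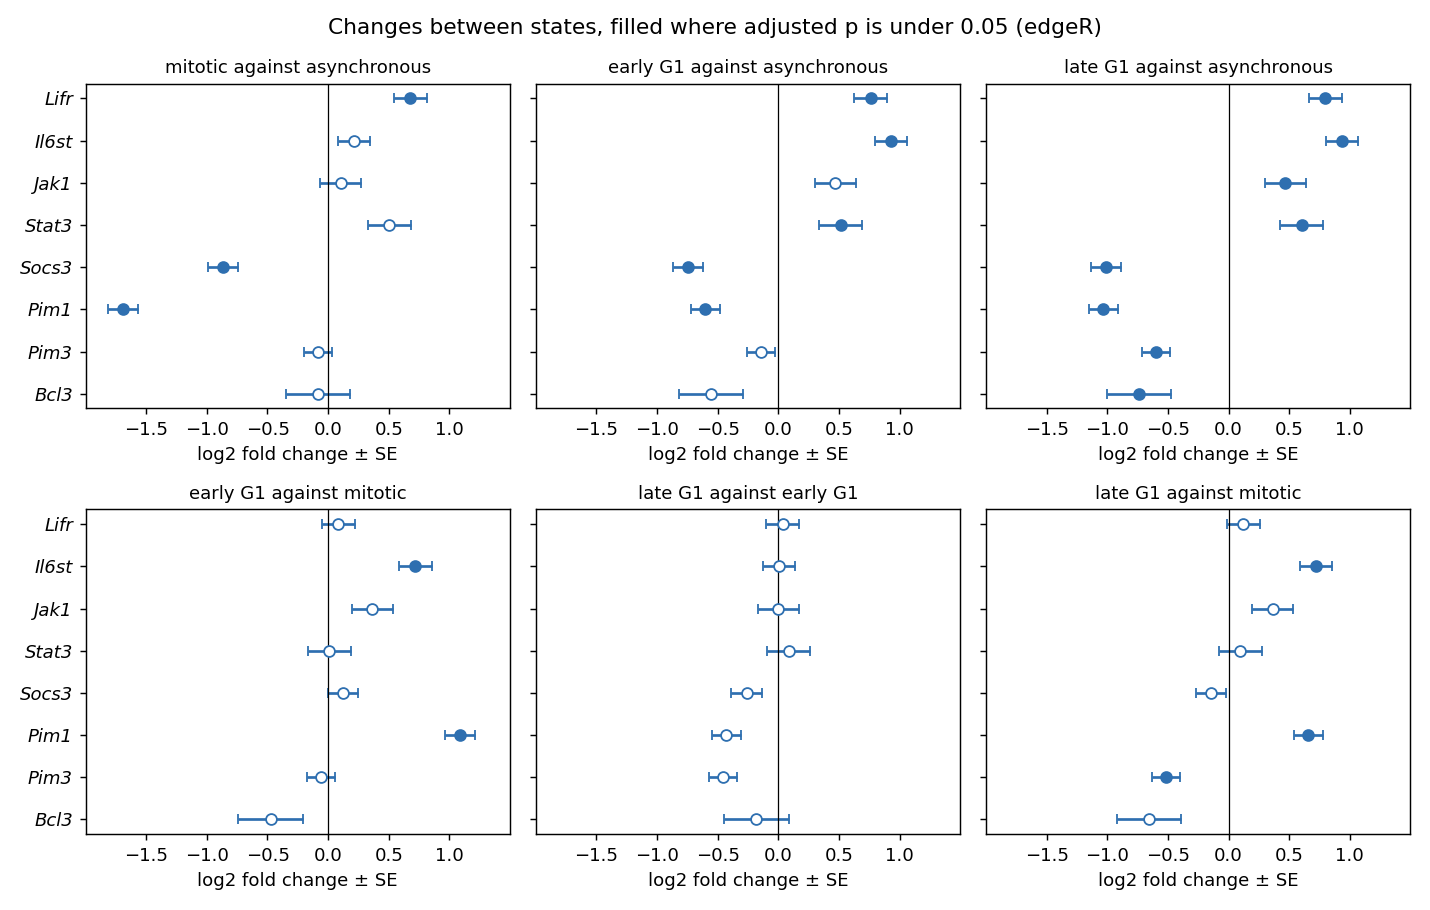
Log2 fold change with its SE (horizontal axes) of the 8 members other than Osmr (vertical axes) in the 6 comparisons of states, filled where the adjusted p was under 0.05. In late G1 against asynchronous cells the 4 signalling genes lie between 0.47 and 0.93 and the 4 targets between -1.03 and -0.60, and between early and late G1 no point is filled.

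Per length of exon, Pim3 and then Socs3 were the most abundant of the members in every state. In asynchronous cells Pim3 stood at 73.7 ± 4.82, Socs3 at 54.5 ± 3.09 and Pim1 at 47.6 ± 3.07 RPKM (CPM per kilobase of exon, mean ± SD, n = 2), and Bcl3 at 19.9 ± 8.44. Jak1 stood at 9.94 ± 2.41 and Stat3 at 8.72 ± 2.24 RPKM. The receptor genes were lower, with Il6st at 5.49 ± 0.349, Lifr at 2.86 ± 0.345 and Osmr at 0.401 ± 0.0135 RPKM. In late G1 Il6st had 10.5 ± 0.295 and Lifr 4.98 ± 0.0280 RPKM, against 27.1 ± 1.66 for Socs3. The receptor genes stayed below the target genes per length in both states. Bcl3, at 11.9 ± 1.23 RPKM in late G1, lay below Jak1 at 13.7 ± 0.157 and Stat3 at 13.2 ± 0.247 RPKM there, the reverse of their order in asynchronous cells.

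The profiles were also compared by the root mean square difference of log2 CPM over the 8 libraries, each gene centred on its mean. Among the members the closest pair was Lifr with Stat3, at 0.11, followed by Jak1 with Stat3, at 0.17. Lifr and Pim1 stood at 0.88, and each pair with Osmr at 1.59 or more. Among 11627 named genes past a minimum average level, those nearest to Lifr were Osbpl11, Pcgf6 and Tfg (0.034 to 0.037, where the median gene stood at 0.43). The nearest to Socs3 were Zfp512, Slc44a2 and Ctc1 (0.051 to 0.071), and to Il6st Piga, Taf1 and Wdr35 (0.060 to 0.087). Pim1 was most like Cenpf, a kinetochore protein gene that stood at 172 and 133 CPM in asynchronous, 53.2 and 59.9 CPM in mitotic, 105 and 121 CPM in early G1 and 84.9 and 80.8 CPM in late G1 cells, at a difference of 0.13, and then Pdk1 and Depdc1b (0.13 and 0.16). Stat3 was nearest to Chp1, Akap1 and Nr6a1 (0.042 to 0.047) and Jak1 to Prpf39 and Lrp11 (0.040 and 0.052). For Pim3 these were Bbs5, Dip2c and Kif23 (0.087 to 0.11) and for Bcl3 Leng9, Rnf26 and Ctu1 (0.081 to 0.087). For Osmr the closest were Gchfr, Pgf and Cldn7 (0.80 to 0.83). Osmr lay below the minimum level of the genes searched (average log2 CPM of 0.599 against 1). It had at most 17 counts outside asynchronous cells, so whether any gene is near to it could not be told. The 8 libraries fall into 4 states, so these values describe likeness over few points.

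Among 64 other genes of LIF, gp130 and STAT3 signalling, 61 had enough counts to be tested, and 60 would have passed the filter without the asynchronous libraries (Il11 would not). Late G1 against asynchronous cells had 21 higher, 17 lower and 23 not called, with a median log2 change of 0.16 against -0.029 over all genes tested. The background of this comparison was 48.7% of genes called, 22.7% higher and 26% lower. Of 24 other genes known to be induced by LIF or STAT3, 11 were higher and 6 lower. The genes of this wider list of targets thus went both ways.

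Myc, a growth-promoting transcription factor gene, had the largest change of these 24, from 3.46 and 1.06 CPM in asynchronous cells to 38.1 ± 2.71 CPM in late G1 (16.3-fold, adjusted p = 3.68e-04). The log2 change of 4.03 was 5.16 without asynchronous replicate 1 and 3.45 without replicate 2. Its mitotic libraries lay between, at 21.5 and 12.9 CPM. Ier3, an immediate early gene, went down at the arrest from 73.5 and 73.2 to 9.57 and 8.33 CPM (8.95 ± 0.872 against 73.3 ± 0.241 CPM, log2 -3.03, adjusted p = 2.45e-05) and stood between 6.29 and 10.0 CPM in G1.

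In the first hour after release 5 of the 61 rose and 0 fell, with a median log2 change of 0.056 (-0.011 over all genes) and a background of 4.63% called. At an unadjusted p under 0.05 these were 10 and 4, or 23% of the list against 22.6% of all genes, and DESeq2 called 6 and 1, or 11.5% against 6.7%. The 5 included Lif itself, the ligand of the pathway, which stood at 6.53 and 7.60 CPM in mitotic, 18.3 and 17.5 CPM in early G1 and 22.6 and 22.9 CPM in late G1 cells (2.53-fold in the first hour, adjusted p = 0.0117, and 3.22-fold by 3 h, adjusted p = 0.00391). In asynchronous cells Lif stood at 13.7 and 9.73 CPM, above mitotic and below G1 cells (adjusted p = 0.0190 and, for late G1, 0.00452). The other 4 were Socs4, Junb, Fos and Smad7, the last named after its value was seen. Junb, of the AP-1 family, rose from 14.9 and 11.5 to 30.7 ± 0.977 CPM (2.32-fold, adjusted p = 0.0117). Fos, also of that family, reached 14.2 and 14.5 CPM in late G1 from 4.47 and 4.92 CPM in mitotic cells (3.05-fold, adjusted p = 0.00368). Each of these calls against mitotic cells was lost without some of the libraries compared: without any mitotic or early G1 library for Lif and Junb in the first hour (adjusted p from 0.0581 to 0.123), without mitotic replicate 1 or either late G1 library for Lif by 3 h (0.0514 to 0.0558), and without either late G1 library for Fos (0.0514 and 0.0558). The lower Lif in mitotic than in asynchronous cells was lost without mitotic replicate 1 or 2 (adjusted p = 0.113 and 0.0505).

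Socs4, of the same family of inhibitors as Socs3, went the other way from it. It stood at 23.2 and 14.5 CPM in asynchronous, 18.4 and 17.6 CPM in mitotic, 34.7 and 37.2 CPM in early G1 and 42.7 and 41.7 CPM in late G1 cells (2.24-fold above asynchronous cells in late G1, adjusted p = 0.00286). Its rise in the first hour (adjusted p = 0.0392) was lost without any mitotic or G1 library (adjusted p from 0.106 to 0.276). Socs6 was 1.99-fold higher in mitotic than in asynchronous cells (47.2 ± 1.65 against 23.7 ± 4.71 CPM, adjusted p = 0.00228). Of the 17 inhibitors and adaptors, 4 were higher and 2 lower in late G1 than in asynchronous cells, a smaller share than the 48.7% of all genes called.

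Among the other receptor genes, Il6ra and Il27ra were named by the rule. Il6ra, which encodes the interleukin-6 receptor, stood at 1.35 and 4.66 CPM in asynchronous and 8.88 and 9.08 CPM in early G1 cells (3.04-fold, adjusted p = 0.0260), a call lost without early G1 replicate 1 or 2 (adjusted p = 0.0825 and 0.0945). Its log2 change of 1.60 was 0.95 without asynchronous replicate 1 and 2.72 without replicate 2. Il27ra, a receptor chain for interleukin-27, fell at the arrest from 4.71 ± 0.492 to 1.87 ± 0.873 CPM (adjusted p = 0.0179, and 0.0849 without mitotic replicate 2). Among 9 other JAK and STAT genes, the called gene with the largest change was Stat4, at 13.6 ± 0.371 in mitotic against 5.05 ± 1.70 CPM in asynchronous cells (adjusted p = 0.00234). In late G1 against asynchronous cells 2 of the 9 were higher and 4 lower, where 22.7% of all genes were higher and 26% lower.

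**Figure D5:**
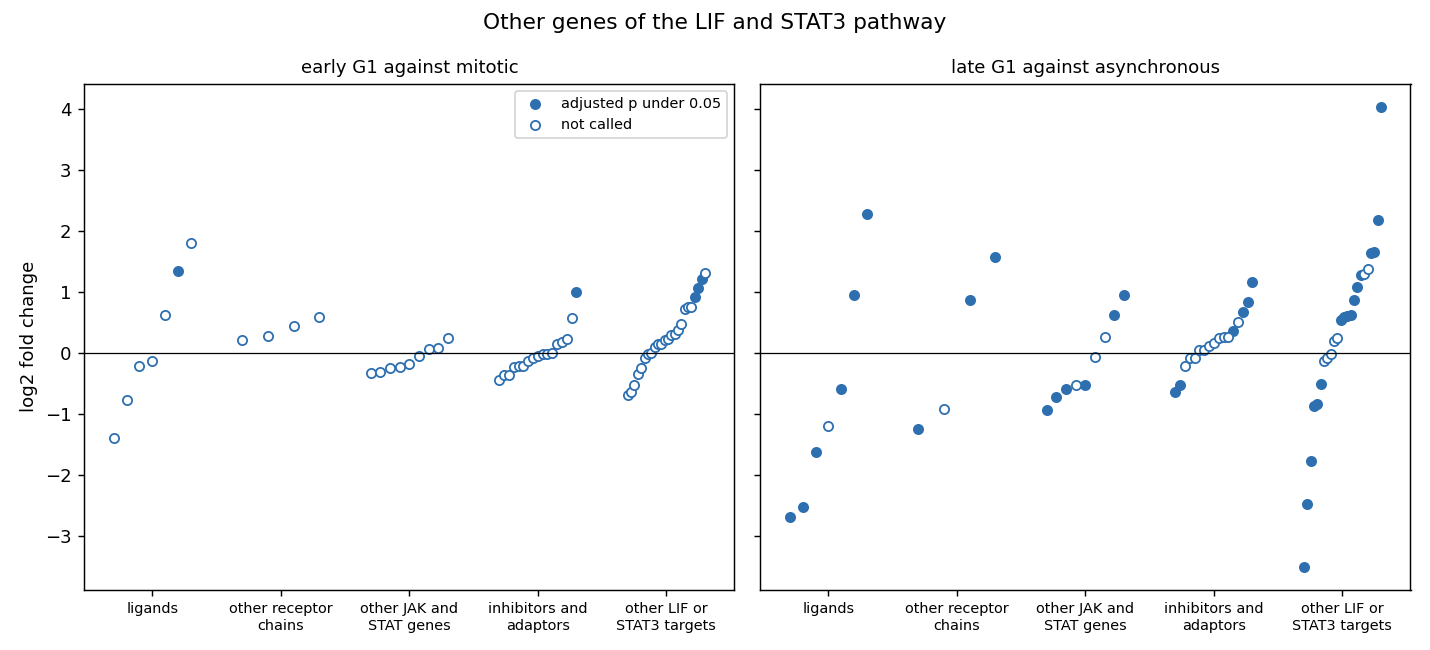
Log2 fold change (vertical axis) of the 61 other pathway genes tested, by group (horizontal axis), for early G1 against mitotic cells on the left and late G1 against asynchronous cells on the right, filled where the adjusted p was under 0.05. On the left 5 genes are filled, all above 0, and on the right 21 above and 17 below 0.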

How the data were processed

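RNA-seq libraries of 8 samples, grouped by title into 4 states of 2, were analysed. The values the authors deposited are whole-number counts for each Ensembl gene and are not normalised. The submitters' processing notes name TopHat2, SAMtools, HTSeq and mm10 but no settings. Which annotation and strand option were used is not given in the sources used here, so overlapping genes are uncertain. Of 54838 IDs, 54809 matched GENCODE M21 (GRCm38).

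In R 4.3.3, edgeR 4.0.16 (filterByExpr, minimum count 10; TMM; robust quasi-likelihood, 4 residual degrees of freedom, all 8 libraries) tested 19101 genes, two-sided. SE is the absolute log2 change over the square root of F. A floor of 3 counts was 0.116 to 0.152 CPM, covering counting error only, as reads are not independent molecules. RPKM uses the union of exons. Alternatives included DESeq2 1.42.0. The test was also tried on simulated counts with known changes.

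Members and lists were chosen with earlier results of these data known. Pathway genes were named by a rule: the called gene with the largest change in each of 5 groups per comparison, an average log2 CPM no lower than 1 and no overlap. For likeness, the 3 nearest genes per member above the same level were named. Genes that these rules select but the text does not name are not reported here. Alternatives, among them each library left out, are in the closing section.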

Additional observations from a re-analysis of the deposited data

How the results depend on the processing

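Counts of calls are given for members (of 9, Osmr included), other pathway genes (of 61) and all genes, and the 6 comparisons moved unequally. Osmr entered the test only through the asynchronous libraries, in which it was high. Its calls against them are therefore no support for a change, and these counts can exceed those of the 8 members above. Leaving out 1 library at a time gave 5 to 9 members over the 4 states (6067 to 12556 of all genes), 4 to 7 for mitotic against asynchronous cells (4737 to 10382), 0 to 4 for early G1 against mitotic (42 to 4518), 0 for late against early G1 (0 to 25), 0 to 5 for late G1 against mitotic (73 to 5546), 4 to 8 for early G1 against asynchronous (4186 to 11237) and 5 to 9 for late G1 against asynchronous (5096 to 11489). For pathway genes these were 22 to 41, 23 to 41, 0 to 12, 0 to 0, 0 to 18, 16 to 38 and 17 to 42. Only the Bcl3 difference of mitotic from asynchronous cells turned its sign with a call, at log2 0.43 without asynchronous replicate 2 (0.28 with both replicates 2 left out) and -0.46 without replicate 1. Where 1 library was left, it was assumed to vary like the other groups.

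In the fit of the 2 groups compared alone, early G1 against mitotic cells gave 12 pathway genes and 2759 of all genes (5 and 885 in the fit of all states). Late G1 against mitotic gave 5 members, 11 and 3959 (3, 7 and 1810), and late against early G1 3 members, 14 and 1493 (0, 0 and 0). Mitotic against asynchronous gave 17 and 3883 (29 and 7767) and early G1 against asynchronous 21 and 5626 (33 and 8784). Late G1 against asynchronous gave 23 pathway genes (38), with 2854 of all genes higher and 3615 lower (4334 and 4971). A term for replicate 1 of asynchronous and mitotic cells gave 53 pathway genes and 13621 of all genes over the states (33 and 9265). For mitotic against asynchronous cells the term gave 49 and 11017 (29 and 7767). It gave 4 members, 17 and 5882 for early G1 against mitotic, 5, 21 and 6593 for late G1 against mitotic and 16 of all genes between G1 states. With both replicates 1 left out these were 54 pathway genes and 15268 of all genes over the states, 8 members and 11700 for mitotic against asynchronous, 5, 28 and 7918 for early G1 against mitotic, 3, 13 and 1518 between G1 states, 7, 25 and 8525 for late G1 against mitotic and 13517 for early G1 against asynchronous. With both replicates 2 left out instead they were 56 and 14885 over the states, 7 members and 49 pathway genes for mitotic against asynchronous, 4, 32 and 7493 for early G1 against mitotic, 3, 13 and 1505 between G1 states, 6, 35 and 8172 for late G1 against mitotic and 51 pathway genes for early G1 against asynchronous. Both of these fits take the spread from G1 cells, whose replicates lay closest. Without the filter on low counts they were 11 and 2362, 11 and 3289 for early and late G1 against mitotic cells and 58 of all genes between G1 states, where DESeq2 gave 26. The cause was not tested.

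Same-numbered libraries of asynchronous and mitotic cells deviated alike, with a correlation across genes of 0.621. For the other pairs of states it lay between -0.365 and 0.0572. Replicate numbers thus did not pair the samples across all 4 states, and the main test used none, also for mitotic against asynchronous cells. With the replicate number as a block, 7 members were called over the states (6) and 5, 2, 0, 3, 6 and 8 in the 6 comparisons (4, 2, 0, 3, 6 and 9). Of all genes the block called 9535 over the states (9265) and 7889 for mitotic against asynchronous cells (7767). For early G1 against mitotic cells it called 803 of all genes (885). The block lost the call of Jak1 in late G1 against asynchronous cells (adjusted p = 0.0519) and gained that of Stat3 in mitotic against asynchronous cells (adjusted p = 0.0321). With early G1 numbers crossed, 2 members and 1272 genes were called against mitotic and 7 and 9541 against asynchronous cells. Counts of 3 or fewer, as for Osmr, limit what could be seen.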
